A study of Mus musculus with 16 samples.

Results

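The genes described here are 51 genes of G2 and mitosis, chosen by symbol from all 55367 gene rows in the count files of mIMCD3 cells, a mouse inner medullary collecting duct line. All 51 passed the filter on low counts, as did 19509 genes in all. The choice covered the switch that starts mitosis, the kinetochore and its checkpoint, the Aurora and Nek2 kinases, the spindle, mitotic exit, cytokinesis, chromosome structure and the nuclear envelope. Wild-type (WT) cells received DMSO, the vehicle, or 10 µM sulforaphane (SFN), an activator of the antioxidant transcription factor Nrf2, for 5 h. They were then collected in isosmotic medium or after 1 h or 6 h in hypertonic medium of 600 mOsm. Nrf2-/- cells, made with CRISPR/Cas9 delivered by lentivirus and selected with antibiotics, all received SFN and were collected in isosmotic medium or after 1 h. Nrf2-/- cells with DMSO or at 6 h were not analysed here, so genotype could be compared only in SFN-treated cells without stress or at 1 h. Whether the Nrf2-/- line is 1 clone, and whether the WT cells carried Cas9, is not given in the sources used here. Each of the 8 conditions had 2 libraries. The study's methods call the RNA-seq libraries of a condition biological replicates. Whether they came from separate cultures is not given in the labels, and the p-values measure the spread between these libraries.

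Cells that leave G2 turn on a large set of genes together. Cyclin B with Cdk1 drives entry into mitosis once the phosphatase Cdc25 has removed an inhibitory mark, the kinetochores then attach chromosomes to the spindle, and the anaphase-promoting complex with Cdc20 ends mitosis by marking securin and cyclin B for destruction. In cycling cells these transcripts are low in G1, rise through S phase and peak in G2 and mitosis, so in a mixed culture their level follows the share of cells in those phases as well as the rate of transcription in each cell. Cells exposed to high salt are known to delay the cycle, and collecting duct cells in the renal medulla meet such conditions in life.

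Many promoters of this gene class carry CCAAT boxes, which bind the factor NF-Y, and a cell cycle homology region (CHR) of the letters TTTGAA, which binds the DREAM and MuvB complexes. The promoters below, from RefSeq on GRCm38.p6, show where these letters occur. At 6 h with DMSO, Ccnb2, Top2a, Ckap2l, Ttk and Gas2l3 fell, and Ect2 and Anln rose, with no match in Anln. Rangap1, which also rose, had no match either and is not printed. Each run holds the 150 bases before the annotated start, read 5′ to 3′ on the gene's strand, and capitals mark CCAAT or TTTGAA on either strand (ATTGG or TTCAAA on the opposite one).

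Ccnb2, chr9:70421555-70421704, minus strand: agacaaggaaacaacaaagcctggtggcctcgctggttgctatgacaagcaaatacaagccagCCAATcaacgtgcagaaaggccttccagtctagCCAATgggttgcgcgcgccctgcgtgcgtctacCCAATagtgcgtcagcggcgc
Top2a, chr11:99024190-99024339, minus strand: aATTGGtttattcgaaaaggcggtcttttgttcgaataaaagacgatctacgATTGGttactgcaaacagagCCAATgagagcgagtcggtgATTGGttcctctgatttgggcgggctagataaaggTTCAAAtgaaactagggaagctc
Ckap2l, chr2:129297213-129297362, minus strand: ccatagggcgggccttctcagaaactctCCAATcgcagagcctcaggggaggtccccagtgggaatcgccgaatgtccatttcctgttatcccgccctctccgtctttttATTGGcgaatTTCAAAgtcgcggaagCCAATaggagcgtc
Ttk, chr9:83834539-83834688, plus strand: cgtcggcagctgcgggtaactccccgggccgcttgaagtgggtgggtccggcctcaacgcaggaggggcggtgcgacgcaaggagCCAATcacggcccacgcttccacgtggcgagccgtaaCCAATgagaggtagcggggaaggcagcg
Gas2l3, chr10:89443968-89444117, minus strand: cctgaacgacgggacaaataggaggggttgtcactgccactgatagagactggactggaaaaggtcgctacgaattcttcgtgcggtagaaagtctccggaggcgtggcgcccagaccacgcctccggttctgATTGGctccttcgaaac
Ect2, chr3:27153879-27154028, minus strand: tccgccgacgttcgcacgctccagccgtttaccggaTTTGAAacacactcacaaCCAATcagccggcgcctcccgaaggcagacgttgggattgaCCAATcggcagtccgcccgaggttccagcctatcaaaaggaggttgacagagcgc
Anln, chr9:22389207-22389356, minus strand: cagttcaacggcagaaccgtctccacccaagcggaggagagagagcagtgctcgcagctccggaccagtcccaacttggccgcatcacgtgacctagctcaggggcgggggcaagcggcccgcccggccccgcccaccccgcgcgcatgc

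RefSeq promoter entries were matched for 45 of the 51 genes, with 50 promoters in all. Over the 250 bases before the start and on both strands, CCAAT occurred in 38 of the 50 (76%) against 33.8% of all 32851 promoters. At least 2 CCAAT boxes were present in 54% against 10.1%, TTTGAA in 40% against 16%, and both motifs in 36% against 5.55%. Of the members that rose at 6 h with DMSO, only Ect2 had either motif, and its call was lost when single libraries were left out. Neither Anln nor Rangap1 had a match, but nor did Ndc80, Nuf2, Birc5, Tacc3 and Nusap1, which fell. Among members with a promoter, CCAAT occurred in 21 of the 27 that fell at 6 h with DMSO, in 1 of the 3 that rose (Ect2) and in 13 of the 15 that were not called. Cdc25c, Aurkb, Tpx2, Dlgap5, Smc4 and Cdca2 had no entry. A match describes these letters only.

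Total counts ranged from 34484296 to 50774875 per library. Nfe2l2, which encodes Nrf2, was at 63.97 to 149.1 CPM (counts scaled to the size of the library, after TMM) in the 12 WT libraries and at 11.02 to 11.63 CPM in the 4 Nrf2-/- libraries, so the labels and the targeted gene match. Of 13 collecting duct markers, 11 had a median above 1 CPM, while Aqp2 and Aqp3, the water channels that define principal cells, were near 0. The fibroblast markers Lum and Dcn had a median of 0, and summed fibroblast, endothelial or leukocyte markers never exceeded 8.69 CPM in a condition. Summed proximal tubule markers reached 25.1 CPM, almost all from Lrp2 and Cubn. The pair of Nrf2-/- libraries at 1 h stood apart, with a biological coefficient of variation of 0.346 against 0.0395 to 0.128 in the other 7 pairs. For 24 of the 51 members these 2 libraries differed by more than 0.5 on the log2 scale, which happened for 0 members in any other pair. Comparisons that use this pair cannot be made without it, and they are also given with single libraries of the pair left out. All conditions share 1 fit, so the counts of other comparisons also depend on the spread of this pair. Counts without the pair are given for 1 h of stress in WT cells and for SFN and genotype without stress. They are also given for whether SFN altered the 6 h change, but not for the 6 h changes themselves. A 6 h change that was not called can therefore not be read as no change.

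In WT DMSO cells without stress every member was expressed. Per kilobase of exon (RPKM, with summed GENCODE M21 exon lengths), the highest was Tubb4b, a beta-tubulin, at 313, followed by the small Cdk-binding proteins Cks1b at 183 and Cks2 at 131. The lowest were the kinetochore genes Ttk at 6.76 and Ndc80 at 6.97 RPKM. Together the 51 genes took 1.03% to 1.23% of all counts in the isosmotic libraries of both genotypes and 0.779% to 0.803% in the 4 libraries at 6 h.

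**Figure D1:**
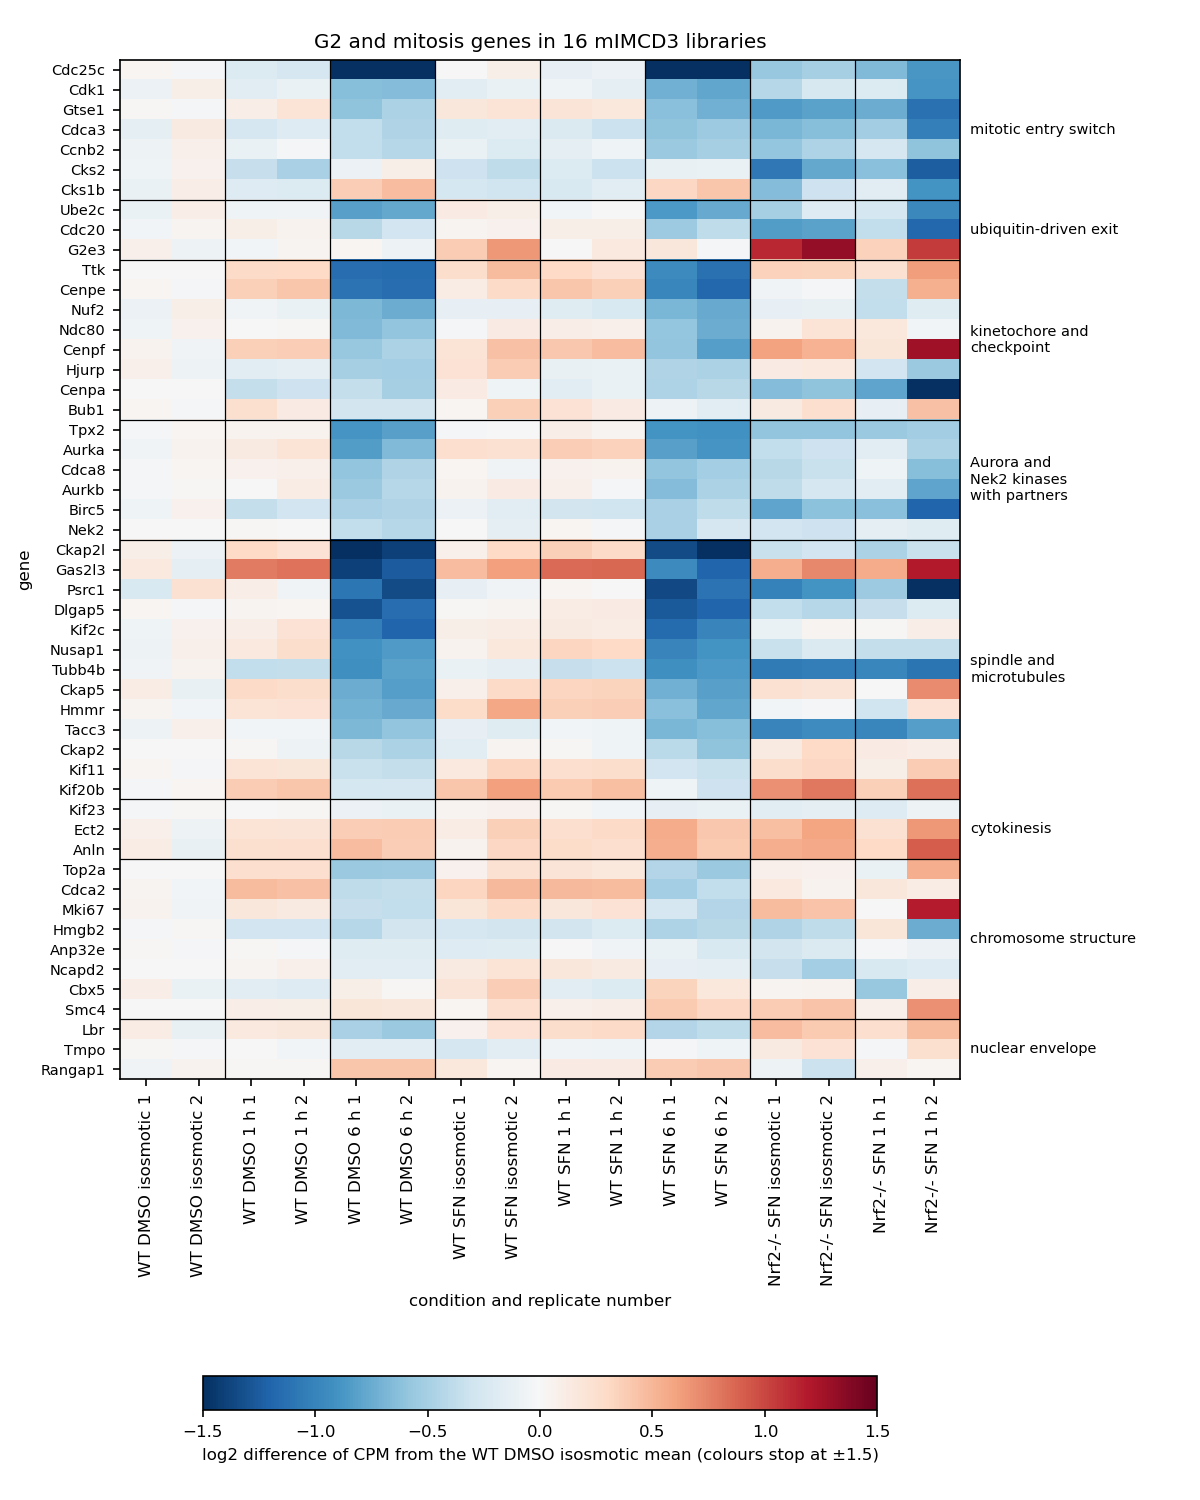
Colour shows the log2 difference of CPM between each library (columns) and the mean of the WT DMSO isosmotic pair for the 51 genes (rows, in blocks by role, blue for lower and red for higher). The 4 libraries at 6 h are blue in most rows, with Cks1b, Anln, Ect2 and Rangap1 red, and the 2 Nrf2-/- libraries at 1 h differ from each other.

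After 6 h of hyperosmotic stress in DMSO-treated WT cells, 32 of the 51 genes fell and 3 rose, in edgeR's quasi-likelihood test with Benjamini-Hochberg adjustment over all genes and a threshold of 0.05. Of all genes tested, 22% were called lower and 23.9% higher in this comparison. The median log2 fold change over the 51 was -0.49, beside 0.05 over all genes, and 45 of the 51 were negative. Fewer cells in G2 and mitosis and less RNA of these genes per cell cannot be told apart in bulk libraries. Relative to the WT DMSO isosmotic mean, the median member stood at -0.48 and -0.47 in the 2 libraries at 6 h and at 0.04 and 0.05 in the 2 libraries at 1 h. The summed collecting duct markers were 2721 CPM without stress and 4552 CPM at 6 h with DMSO, 2102 and 4398 CPM with SFN, and 2182 CPM in unstressed Nrf2-/- cells. The sums of the other cell types, all low, were also higher at 6 h with DMSO, at 10.3 and 24.3 CPM for proximal tubule, 3.0 and 6.32 CPM for fibroblasts, 0.112 and 4.16 CPM for endothelium and 2.91 and 8.69 CPM for leukocytes. In unstressed Nrf2-/- cells the proximal tubule sum was 2.91 CPM, against 11.2 CPM in WT cells with SFN. The part of these markers in the changes of the members was not tested.

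Of the 7 genes of the switch that starts mitosis 5 fell. Cdc25c, the phosphatase that activates Cdk1, was at 38.1 and 36.9 CPM without stress and at 13.0 and 12.6 CPM at 6 h. The groups were far apart, and the level was 2.92-fold lower (log2 fold change -1.55 ± 0.11 SE, edgeR adjusted p = 8.97e-08), the largest fall of any member. Exons of Cdc25c overlap those of Gm3550 on the other strand, and the strand setting of the counting is not given. Cdk1, the kinase at the core of the switch (GRCm38 chr10:69335146-69352938), was at 291.3 and 327.5 CPM without stress and at 198.9 and 196.7 CPM at 6 h. Both stressed libraries lay below both controls, and the change was -0.65 ± 0.16 (edgeR adjusted p = 0.0037). Ccnb2, a mitotic B-type cyclin, went from 86.4 and 96.03 CPM to 70.4 and 67.8 CPM, a smaller fall of -0.40 ± 0.11 without overlap (edgeR adjusted p = 0.00983). Gtse1, a microtubule-binding protein that restrains p53 in G2 (-0.54), and Cdca3 (-0.42) also fell.

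The 2 Cks genes, small proteins that help Cdk1 find its substrates, did not follow. Cks2 was at 86.3 and 95.1 CPM without stress and at 85.0 and 96.2 CPM at 6 h, so its libraries overlapped and its change was -0.00149 ± 0.158 (edgeR adjusted p = 1). Cks1b was at 192.9 and 219.7 CPM without stress and at 265.7 and 283.7 CPM at 6 h. The libraries did not overlap, but the difference of 0.41 ± 0.17 was not called (edgeR adjusted p = 0.0648). Cks1b also serves the ubiquitin ligase that destroys the G1 inhibitor p27, a role outside mitosis.

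All 6 genes of the Aurora and Nek2 group fell. Aurka, the kinase of centrosome maturation and spindle assembly, was at 114.9 and 123.1 CPM without stress and at 66.8 and 75.3 CPM at 6 h. With no overlap, it was 1.68-fold lower (-0.75 ± 0.11, edgeR adjusted p = 5.12e-05). Tpx2, which activates Aurora A on the spindle, fell by 0.85 on the log2 scale. The chromosomal passenger complex, in which Aurora B corrects faulty attachments, had smaller changes. Aurkb was at 117.3 and 121.0 CPM without stress and at 81.1 and 88.3 CPM at 6 h, a change of -0.49 ± 0.15 (edgeR adjusted p = 0.0143). Birc5, survivin, was at 181.5 and 197.4 CPM without stress and at 135.3 and 138.5 CPM at 6 h, a change of -0.47 ± 0.14 (edgeR adjusted p = 0.013). Neither gene's libraries overlapped between conditions. Cdca8, borealin, fell by 0.52 and Nek2, a centrosome kinase, by 0.40.

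Of the 8 kinetochore and checkpoint genes 5 fell. The largest falls were in Ttk, the Mps1 kinase that starts the spindle checkpoint (-1.15), and Cenpe, the kinetochore motor that brings chromosomes to the spindle equator (-1.13). Nuf2 (-0.71) and Ndc80 (-0.63), partners in the complex that grips microtubule ends, and Hjurp (-0.50), the chaperone that loads the centromeric histone, also fell. Cenpa, that histone, was at 165.6 and 168.3 CPM without stress and at 129.9 and 118.3 CPM at 6 h, with no overlap, but its difference of -0.43 ± 0.19 was not called (edgeR adjusted p = 0.0769). Cenpf, a large outer kinetochore protein, was at 185.7 and 172.0 CPM without stress and at 120.7 and 128.3 CPM at 6 h, a difference of -0.52 ± 0.23 that was not called either (edgeR adjusted p = 0.0853). For Bub1, a checkpoint kinase, the difference was -0.28, not called.

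In the spindle group 12 of the 13 genes were lower, and its median of -0.86 was the most negative of the 8 groups. Ckap2l, a spindle protein also called radmis (chr2:129268210-129297212), was at 89.8 and 79.6 CPM without stress and at 29.2 and 32.1 CPM at 6 h. Well separated in all 4 libraries, it was 2.76-fold lower (-1.47 ± 0.12, edgeR adjusted p = 3.97e-07). Gas2l3, a linker of actin and microtubules (chr10:89408823-89443967), was at 62.1 and 50.9 CPM without stress and at 21.3 and 23.6 CPM at 6 h, 2.51-fold lower (-1.33 ± 0.17, edgeR adjusted p = 2.03e-05). Tubb4b was at 627.9 and 679.0 CPM without stress and at 344.8 and 375.1 CPM at 6 h. This abundant tubulin was 1.81-fold lower (-0.86 ± 0.09, edgeR adjusted p = 2.79e-06), and its exons overlap those of Fam166a on the other strand. Ckap2l exons likewise overlap the antisense Gm14024, and Cdca8, Nek2, Tacc3, Nusap1, Ube2c, Tmpo and Lbr also share exonic bases with a gene on the other strand.

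Psrc1, a microtubule regulator and the least counted of the spindle genes, was at 21.1 and 29.2 CPM without stress and at 11.7 and 9.79 CPM at 6 h. It fell by 1.23 on the log2 scale with a wide standard error of 0.27 (edgeR adjusted p = 0.00169). Dlgap5, which stabilises kinetochore fibres, fell by 1.22 and Kif2c, the microtubule depolymerase MCAK, by 1.11. The remaining falls were in Nusap1 (-0.88), Ckap5 (-0.79), Hmmr (-0.73), Tacc3 (-0.63), Ckap2 (-0.45) and Kif11 (-0.35), the motor that pushes spindle poles apart. Kif20b was the exception at -0.26, not called. In mitotic exit, Ube2c, the conjugating enzyme of the anaphase-promoting complex, fell by 0.79. Cdc20, the activator of that complex, was at 182.7 and 192.2 CPM without stress and at 141.0 and 153.1 CPM at 6 h, a difference of -0.35 ± 0.17 that was not called (edgeR adjusted p = 0.118). G2e3, a ubiquitin ligase named for its peak in G2, was at 62.5 and 56.0 CPM without stress and at 60.5 and 56.2 CPM at 6 h, within the spread of the libraries.

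Cytokinesis was the only one of the 8 role groups in which no gene fell and more than 1 rose. Anln, the anillin of the contractile ring, was at 300.7 and 258.7 CPM without stress and at 384.7 and 359.3 CPM at 6 h. The stressed libraries were the higher ones (0.41 ± 0.16, edgeR adjusted p = 0.0435), but the call was lost in 13 of the 25 alternatives. Ect2, the exchange factor that activates RhoA at the cell equator, rose by 0.37 ± 0.13 (edgeR adjusted p = 0.0292), and this call was lost when any 1 of the 4 libraries compared was left out. Kif23, a central spindle motor, was not called (-0.09). Rangap1, the GTPase activator of nuclear transport that binds the mitotic spindle (chr15:81704248-81745530), was at 475.5 and 511.9 CPM without stress and at 656.9 and 658.7 CPM at 6 h. The groups did not overlap and it was the third member that rose (0.41 ± 0.10, edgeR adjusted p = 0.00292). Its exons overlap those of Zc3h7b on the other strand.

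Of the 8 chromosome structure genes 2 were called, both lower, and the median was -0.27. Top2a, the topoisomerase that untangles sister chromatids, was at 873.9 and 870.3 CPM without stress and at 594.0 and 598.0 CPM at 6 h. These tight, separate pairs gave a fall of 0.55 on the log2 scale (SE 0.15, edgeR adjusted p = 0.00759). Cdca2, which brings phosphatase 1 to chromatin at mitotic exit, fell by 0.37. Mki67, the proliferation antigen Ki-67, was at 400.5 and 373.5 CPM without stress and at 303.6 and 300.2 CPM at 6 h. Hmgb2, a DNA-bending protein, was at 331.3 and 338.1 CPM without stress and at 248.1 and 275.8 CPM at 6 h. Neither pair overlapped, yet neither difference was called, at -0.36 ± 0.24 for Mki67 (edgeR adjusted p = 0.254) and -0.35 ± 0.19 for Hmgb2 (edgeR adjusted p = 0.152). The shared fit includes the Nrf2-/- 1 h pair, at 389.8 and 876.2 CPM for Mki67 and 378.8 and 199.8 CPM for Hmgb2. For Cenpf and Cenpa, also not called, that pair was at 202.8 and 431.0 CPM and at 96.2 and 52.0 CPM. The part of this pair in these standard errors was not tested. Smc4, a condensin subunit, gave 0.18 and Cbx5, heterochromatin protein 1 alpha, 0.05, both not called. In the nuclear envelope Lbr, the lamin B receptor, fell by 0.52 and Tmpo, which binds lamins and chromatin, gave -0.17, not called.

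**Figure D2:**
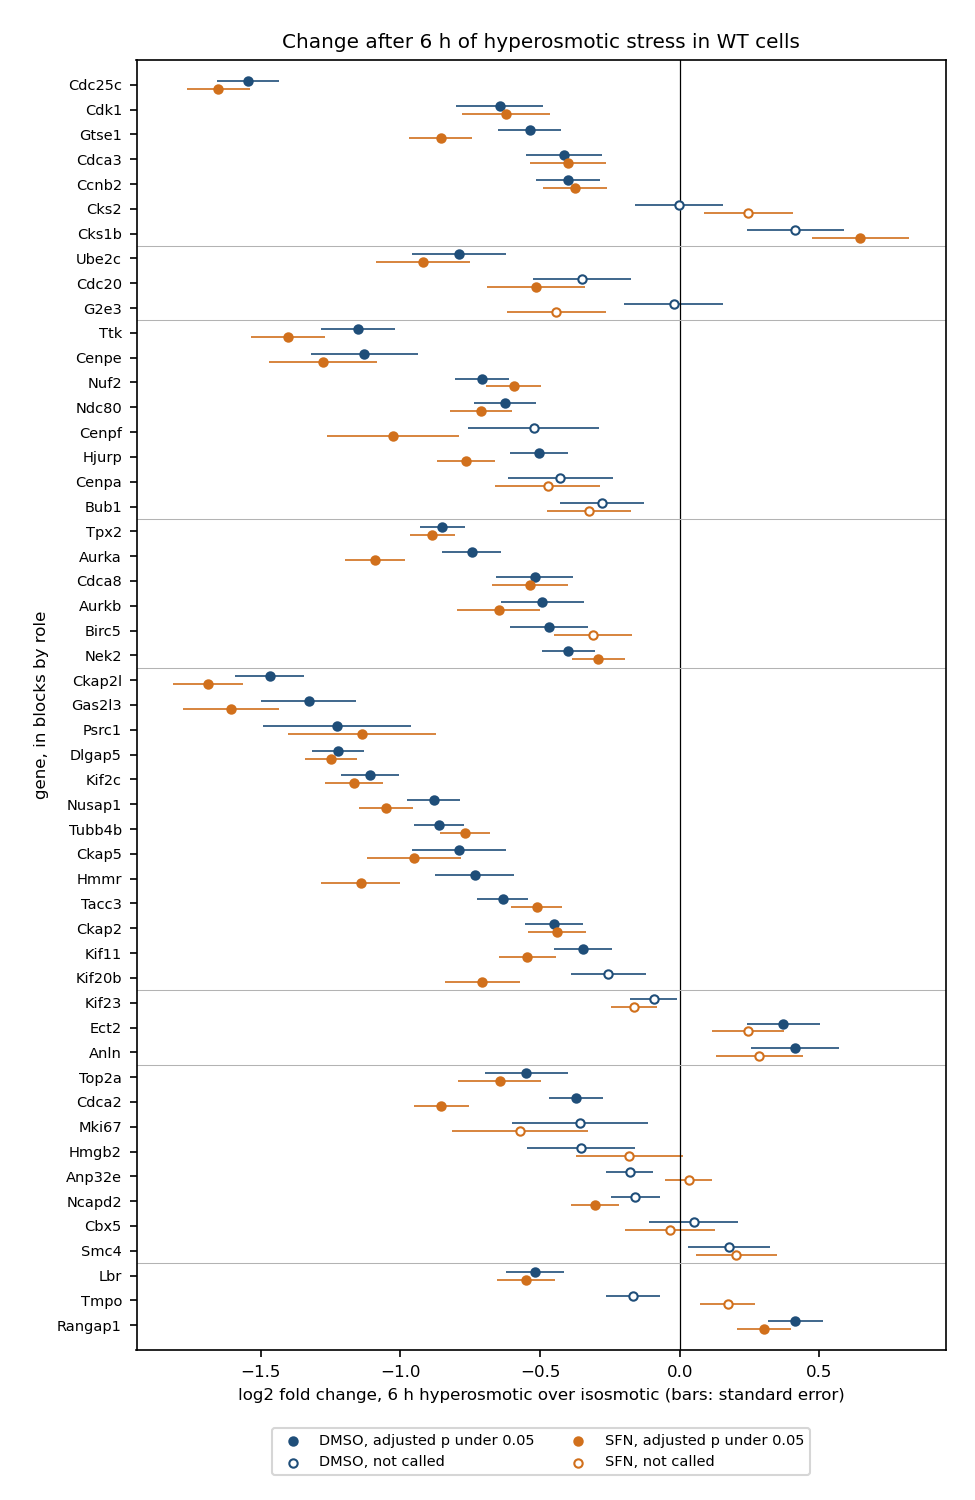
Points give the log2 fold change of each member (rows) at 6 h against isosmotic medium in DMSO-treated (blue) and SFN-treated (orange) WT cells, bars the standard error, and filled points an adjusted p under 0.05. Cdc25c, Ckap2l and Gas2l3 lie farthest to the left in both treatments, and Cks1b and Rangap1 farthest to the right.

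In SFN-treated WT cells 35 of the 51 genes fell at 6 h and 2 rose, beside 22.9% called lower and 24.7% called higher over all genes tested. The median member changed by -0.57, beside 0.09 over all genes. The DMSO and SFN comparisons share no library. Over the 51 genes their log2 fold changes had r = 0.935, beside 0.825 over all genes, as a description of genes measured in the same libraries. The sign was shared by 47 members. Lower in both were 31 genes, 96.9% of those that fell with DMSO and 88.6% of those that fell with SFN. The same overlap over all genes was not counted, so these percentages cannot be read as particular to the members. Rangap1 rose in both.

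Ckap2l fell most with SFN, from 89.3 and 103.9 CPM to 33.3 and 26.6 CPM, a 3.22-fold difference (-1.69 ± 0.12, edgeR adjusted p = 8.73e-08). Cdc25c went from 37.4 and 39.9 CPM to 12.7 and 11.9 CPM, -1.65 ± 0.11 (edgeR adjusted p = 3.91e-08). Gas2l3 went from 77.2 and 86.2 CPM to 29.0 and 24.6 CPM, -1.61 ± 0.17 (edgeR adjusted p = 3.31e-06). For none of these did the libraries overlap. All 13 spindle genes were lower, including Kif20b (-0.71), and so were Cenpf, Cdc20 and Ncapd2, a condensin subunit (-0.30), none of which was called with DMSO. Cenpf was at 205.3 and 242.0 CPM without stress and at 118.9 and 100.5 CPM at 6 h (-1.03 ± 0.24, edgeR adjusted p = 0.00278). Cdc20 was at 192.8 and 196.6 CPM without stress and at 128.2 and 144.3 CPM at 6 h (-0.52 ± 0.18, edgeR adjusted p = 0.0252). The other genes lower with SFN were Ttk (-1.40), Cenpe (-1.28), Dlgap5 (-1.25), Kif2c (-1.17), Hmmr (-1.14), Psrc1 (-1.14), Nusap1 (-1.05), Ckap5 (-0.95), Ube2c (-0.92), Tpx2 (-0.89), Gtse1 (-0.86), Cdca2 (-0.85), Hjurp (-0.77), Ndc80 (-0.71), Nuf2 (-0.60), Kif11 (-0.55), Lbr (-0.55), Cdca8 (-0.54), Tacc3 (-0.51), Ckap2 (-0.44), Cdca3 (-0.40) and Nek2 (-0.29), besides the landmark genes. A call in one treatment and not in the other is not a difference between them and the difference itself had its own test, in which edgeR called 0 members.

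Cdk1 was at 277.7 and 288.7 CPM without stress and at 188.1 and 180.0 CPM at 6 h with SFN (-0.62). Aurka was at 141.8 and 139.8 CPM and then at 67.9 and 64.4 CPM (-1.09), and Aurkb at 123.6 and 129.4 CPM and then at 76.0 and 85.5 CPM (-0.65). All 3 kinases fell without overlap. Ccnb2 fell from 84.7 and 79.3 CPM to 61.9 and 64.5 CPM (-0.38), Tubb4b from 608.4 and 596.6 CPM to 346.0 and 360.7 CPM (-0.77), and Top2a from 910.5 and 1020 CPM to 641.4 and 593.8 CPM (-0.64). Birc5, at 178.8 and 168.4 CPM and then 135.2 and 144.9 CPM, was not called (-0.31 ± 0.14, edgeR adjusted p = 0.0824). Not called either were Mki67, at 437.6 and 471.4 CPM and then 325.8 and 285.8 CPM (-0.57), Cenpa, at 181.1 and 159.9 CPM and then 120.8 and 124.9 CPM (-0.47), and Hmgb2, at 281.2 and 277.5 CPM and then 242.9 and 250.1 CPM (-0.18), although in each the 2 stressed libraries were the lower ones.

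Cks1b rose with SFN, from 172.1 and 166.8 CPM to 255.6 and 275.0 CPM (0.65 ± 0.17, edgeR adjusted p = 0.00682). Rangap1 rose from 550.0 and 503.3 CPM to 643.4 and 655.3 CPM (0.30 ± 0.10, edgeR adjusted p = 0.0191). Both moved above their control pairs without overlap. Cks2 was at 72.8 and 69.4 CPM without stress and at 84.0 and 84.6 CPM at 6 h, not called (0.25), and Anln at 289.1 and 344.8 CPM and then 407.5 and 364.8 CPM, also not called (0.28 ± 0.16, edgeR adjusted p = 0.152).

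The levels at 6 h were also below those at 1 h. Against 1 h, 33 of the 51 genes were lower and 2 higher at 6 h with DMSO, beside 22% and 20.4% of all genes tested, and 34 were lower and 3 higher with SFN, beside 21.7% and 20.9%. These comparisons share the 6 h libraries with those above. Gas2l3 fell most from 1 h to 6 h in both, by 2.12 with DMSO and by 1.92 with SFN on the log2 scale, since it stood at 96.7 to 101.9 CPM in the 4 WT libraries at 1 h. Cks1b was higher at 6 h than at 1 h in both treatments (0.62 with DMSO, 0.56 with SFN).

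At 1 h few members had changed. With DMSO 3 of the 51 were called, beside 11.2% of all genes tested. An unadjusted p under 0.05 was found for 10 of the 51, beside 4611 of all 19509 genes. Gas2l3 rose to 96.7 and 98.99 CPM (0.79 ± 0.17, edgeR adjusted p = 0.0067), the opposite direction to its change at 6 h. Cdca2 also rose, by 0.45, and Tubb4b fell to 504.1 and 511.3 CPM (-0.36 ± 0.09, edgeR adjusted p = 0.0163). Of the entry switch, the libraries at 1 h with DMSO had Cdk1 at 276.5 and 287.4 CPM, Ccnb2 at 85.3 and 89.9 CPM, Cks1b at 180.1 and 178.1 CPM and Cks2 at 71.5 and 64.8 CPM. The kinases Aurka and Aurkb were at 130.6 and 136.7 CPM and at 119.0 and 128.8 CPM, with Birc5 at 147.8 and 155.0 CPM and Cdc20 at 198.6 and 193.7 CPM. Cenpa was at 129.9 and 134.4 CPM, Cenpf at 228.1 and 231.0 CPM, Top2a at 1039 and 1042 CPM, Mki67 at 435.3 and 425.0 CPM and Hmgb2 at 274.9 and 274.7 CPM. None of these 13 genes was called at 1 h. With SFN, 1 member was called, beside 9.52% of all genes, and in Nrf2-/- cells 1, beside 7.17%. In both it was Hjurp, lower by 0.40 in WT cells and by 0.55 in Nrf2-/- cells. Without the 2 Nrf2-/- libraries at 1 h in the fit, 16 members were called at 1 h with DMSO, 10 of them higher, and 5 with SFN. Leaving this pair out lowered the common biological coefficient of variation from 0.149 to 0.0864. The share of all genes called was not counted in fits with fewer libraries, so such counts cannot be set against the shares of the full fit. In Nrf2-/- cells 23 were called without replicate 1 at 1 h and 17 without replicate 2.

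Few members were called for SFN itself. Without stress only Cdca2 was called in WT cells, higher by 0.41 ± 0.10 (edgeR adjusted p = 0.0332, 59.4 and 66.7 CPM with SFN against 48.6 and 46.2 CPM with DMSO), beside 2.84% of all genes tested. A further 11 members had an unadjusted p under 0.05, among them Gas2l3, Kif20b and G2e3 with higher means. With Cdca2 these were 12 of the 51, beside 3010 of all 19509 genes. Without the Nrf2-/- 1 h libraries 18 were called, 13 of them higher, with no share of all genes counted. At 1 h edgeR called 0 members (0.0923% of all genes) and at 6 h 0 members (0.041%). In both, 0 members had an unadjusted p under 0.05 and DESeq2 called 0. Over all 19509 genes, 669 at 1 h and 718 at 6 h had an unadjusted p under 0.05. The test of whether SFN altered the 6 h change called 0 members (0.759% of all genes) in edgeR and 1 in DESeq2. At an unadjusted p under 0.05 there were 4 of the 51, beside 1721 of all 19509 genes. These 4 were Cdca2 (-0.48), Kif20b (-0.45), Aurka (-0.35) and Tmpo (0.34). Fits without the Nrf2-/- 1 h libraries or on the WT libraries alone called 5 and 6 members, again with no share of all genes counted. The levels at 6 h with DMSO and SFN can be read side by side in the plot of CPM per library, where Aurka stood at 66.8 and 75.3 CPM with DMSO and at 67.9 and 64.4 CPM with SFN.

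**Figure D3:**
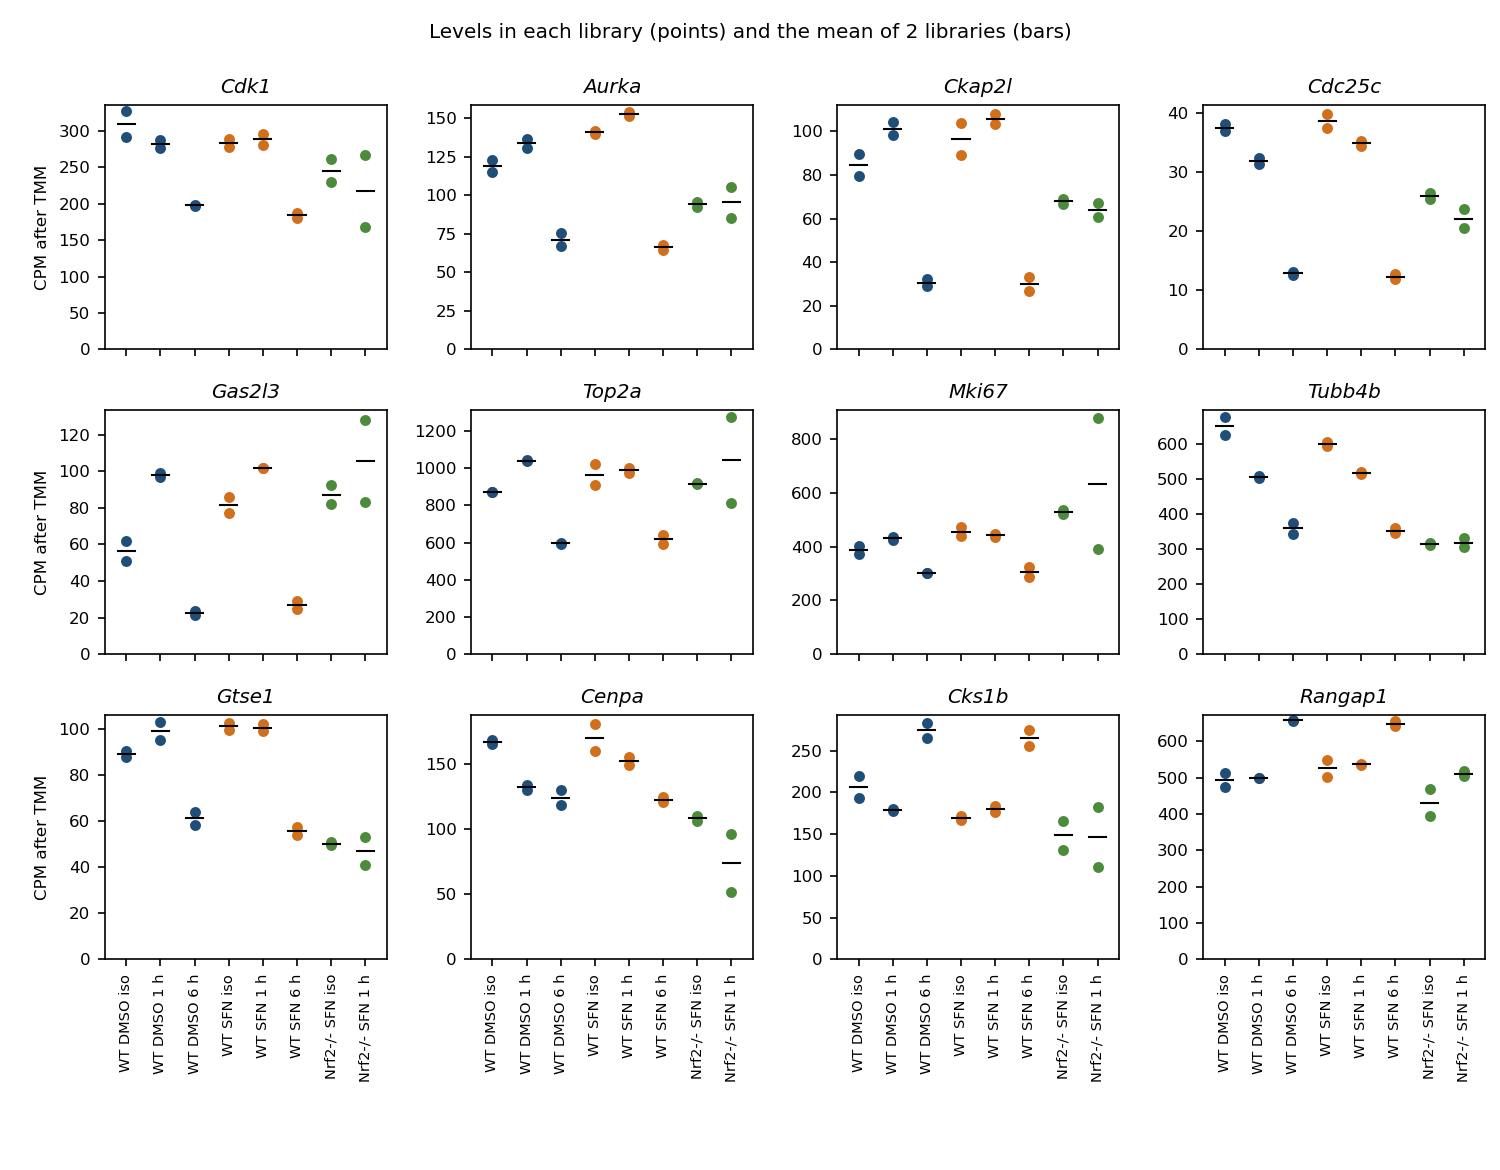
CPM after TMM scaling (vertical axis, from 0) of 12 members in each of the 16 libraries, by condition (WT with DMSO in blue, WT with SFN in orange, Nrf2-/- with SFN in green), with bars at the mean of 2 libraries. Ckap2l, Cdc25c and Gas2l3 drop at 6 h, Gtse1, Tubb4b and Cenpa are lower in the Nrf2-/- libraries, and the 2 Nrf2-/- libraries at 1 h are far apart for Mki67 and Top2a.

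Between genotypes, in SFN-treated cells without stress, 21 of the 51 genes were lower and 3 higher in Nrf2-/- than in WT cells, beside 18.4% called lower and 15.7% called higher over all genes tested. The median was -0.23, beside -0.00091 over all genes. By role, lower were 5 of 7 genes of the entry switch, 4 of 6 of the Aurora and Nek2 group and 7 of 13 spindle genes, but 1 of 8 kinetochore genes and 2 of 8 chromosome structure genes. Differences between 2 lines can belong to the lines as well as to Nrf2, and the design cannot tell these apart.

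Gtse1 (chr15:85859745-85876573) was at 99.9 and 102.6 CPM in WT and at 49.6 and 51.1 CPM in Nrf2-/- cells. It differed 2.01-fold, the largest difference of any member without stress (-1.01 ± 0.11, edgeR adjusted p = 7.24e-06). Tubb4b was at 608.4 and 596.6 CPM in WT and at 312.2 and 317.1 CPM in Nrf2-/- cells (-0.94 ± 0.09, edgeR adjusted p = 1.38e-06). Cdc20 was at 192.8 and 196.6 CPM in WT and at 105.2 and 107.1 CPM in Nrf2-/- cells (-0.88 ± 0.18, edgeR adjusted p = 0.00133). In all 3 genes the pairs were tight and separate. Exons of Cdc20 overlap those of Elovl1 on the other strand. Psrc1 (-0.87), Tacc3 (-0.81), Cenpa (-0.65), Ncapd2 (-0.59), Aurka (-0.58), Cdc25c (-0.58), Birc5 (-0.57), Tpx2 (-0.57), Cks2 (-0.56) and Ckap2l (-0.51) followed. The remaining 8 lower genes were Cdca3, Hmmr, Dlgap5, Aurkb, Nusap1, Ccnb2, Cdca2 and Rangap1, at -0.49 to -0.29.

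G2e3 was the member with the largest excess in Nrf2-/- cells, at 129.1 and 147.5 CPM against 76.9 and 92.8 CPM in WT (0.70 ± 0.18, edgeR adjusted p = 0.00622). Tmpo was at 724.7 and 769.5 CPM against 558.0 and 586.3 CPM (0.38 ± 0.10, edgeR adjusted p = 0.00656), and Lbr differed by 0.28. For Anln the values were 405.4 and 414.1 CPM against 289.1 and 344.8 CPM, not called (0.37 ± 0.16, edgeR adjusted p = 0.0834). Several genes with large changes at 6 h showed little between genotypes. Cdk1 was at 229.6 and 261.1 CPM in Nrf2-/- cells, Top2a at 920.8 and 912.2 CPM and Ttk at 42.4 and 41.9 CPM, with differences from WT of -0.21, -0.08 and -0.03, none called. Over the 51 genes, the 6 h change with DMSO and the genotype difference without stress, which share no library, had r = 0.353, beside 0.03 over all genes. Lower in both were 16 members, 50% of those that fell at 6 h and 76.2% of those lower in Nrf2-/- cells, beside 27.7% and 33.1% over all genes. In each comparison alone, 32 and 21 of the 51 members were lower, beside 22% and 18.4% of all genes. Such rates by themselves give a larger overlap, and no overlap beyond them was tested.

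The other landmark genes in Nrf2-/- cells without stress, to be read against the WT values above, were as follows. Aurka was at 92.3 and 95.7 CPM, Aurkb at 91.7 and 99.7 CPM, Birc5 at 109.2 and 124.0 CPM and Ccnb2 at 61.0 and 65.9 CPM. Cenpa was at 106.4 and 110.2 CPM and Cks2 at 43.1 and 53.1 CPM. All of these lay below both WT libraries. Mki67 was at 535.7 and 520.3 CPM and Cenpf at 272.0 and 255.7 CPM, both above WT but not called (0.22 and 0.24), and Cks1b at 131.2 and 165.7 CPM and Hmgb2 at 243.9 and 256.6 CPM, below WT and not called (-0.19 and -0.16).

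At 1 h, 23 genes were lower and 1 higher in Nrf2-/- cells, beside 16.2% and 15.3% of all genes tested, with a median of -0.23 beside -0.02 over all genes. This comparison shares no library with the one without stress. Their log2 fold changes over the 51 genes had r = 0.939, beside 0.699 over all genes. Lower in both were 20 genes, 95.2% of the 21 and 87% of the 23, and G2e3 was higher in both. For this pair of comparisons too the overlap over all genes was not counted. The test of whether genotype altered the 1 h change called 0 members (0.123% of all genes) in edgeR and 0 in DESeq2. In edgeR 1 member had an unadjusted p under 0.05, beside 1433 of all 19509 genes. That test called 13 members without replicate 1 of the Nrf2-/- 1 h pair and 6 without replicate 2.

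Gtse1 again differed most at 1 h, at 102.2 and 99.3 CPM in WT and at 53.2 and 41.2 CPM in Nrf2-/- cells (-1.09 ± 0.11, edgeR adjusted p = 3.82e-06). Cenpa was at 149.1 and 155.4 CPM in WT and at 96.2 and 52.0 CPM in Nrf2-/- cells (-1.04 ± 0.19, edgeR adjusted p = 0.00072). Psrc1 was at 25.4 and 24.7 CPM in WT and at 17.0 and 7.67 CPM in Nrf2-/- cells (-1.02 ± 0.26, edgeR adjusted p = 0.00836). Each was lower in both Nrf2-/- libraries, but in Cenpa and Psrc1 the 2 libraries differed widely. Tubb4b (515.3 and 521.0 CPM against 332.1 and 305.6 CPM, -0.70) and Aurka (153.8 and 151.4 CPM against 105.5 and 85.5 CPM, -0.68) were lower without overlap. G2e3 was at 59.0 and 65.3 CPM in WT and at 74.9 and 122.6 CPM in Nrf2-/- cells (0.67 ± 0.18, edgeR adjusted p = 0.00977).

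Cdc20 was at 199.8 and 198.8 CPM in WT and at 145.6 and 82.8 CPM in Nrf2-/- cells (-0.80), Birc5 at 156.3 and 153.3 CPM and at 122.2 and 82.8 CPM (-0.59), and Cks2 at 78.5 and 72.3 CPM and at 58.7 and 38.6 CPM (-0.63). Aurkb was at 125.1 and 117.9 CPM and at 105.9 and 69.1 CPM (-0.47), and Ccnb2 at 82.8 and 87.2 CPM and at 76.7 and 60.0 CPM (-0.31). These 5 genes were called lower, without overlap. Cdk1, at 295.8 and 281.3 CPM in WT and at 267.3 and 167.7 CPM in Nrf2-/- cells (-0.41), and Cks1b, at 176.2 and 184.3 CPM and at 182.6 and 110.9 CPM (-0.30), were not called, and Cks1b overlapped. The other genes called lower at 1 h were Tacc3 (-0.85), Ckap2l (-0.73), Nusap1 (-0.67), Cdc25c (-0.66), Tpx2 (-0.61), Ube2c (-0.55), Cdca3 (-0.48), Dlgap5 (-0.39), Hmmr (-0.38), Cdca8 (-0.38), Ncapd2 (-0.36), Cdca2 (-0.33) and Hjurp (-0.32). In a fit on the 4 libraries compared, 4 of the calls at 1 h remained.

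For some landmark genes the 2 Nrf2-/- libraries at 1 h fell on opposite sides of WT. Mki67 was at 389.8 and 876.2 CPM in Nrf2-/- cells and at 436.7 and 448.0 CPM in WT (0.52 ± 0.24, not called). Cenpf was at 202.8 and 431.0 CPM, with WT at 236.9 and 246.8 CPM (0.39 ± 0.23, not called). Top2a was at 814.6 and 1276 CPM and Hmgb2 at 378.8 and 199.8 CPM, each around a WT pair of 1001 and 973.6 CPM and of 276.9 and 290.4 CPM. Replicate 2 was the higher library for Mki67, Cenpf and Top2a and the lower one for Hmgb2. The first 3 have summed exon lengths of 10061, 15433 and 9013 bases and Hmgb2 of 3003 bases.

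Over the 51 genes the log2 difference between these 2 libraries had r = 0.685 with log2 exon length, beside 0.213 over 19017 genes with a length. The genotype difference had r = 0.545 with log2 length over the members without stress and 0.556 at 1 h, beside -0.0018 and 0.0029 over all genes. Relations of that size were also found without Nrf2-/- cells, at 0.556 for SFN in unstressed WT cells, 0.463 for 1 h of stress with DMSO, 0.451 for SFN at 6 h and -0.40 for the SFN by 6 h test. The 6 h changes had -0.035 with DMSO and -0.18 with SFN. Within replicate pairs the difference also ran with length over the members, at r = -0.54 in unstressed WT cells with DMSO, 0.497 in unstressed WT cells with SFN, -0.48 in unstressed Nrf2-/- cells, and -0.33 and -0.45 at 6 h with DMSO and SFN, and at 0.103 and 0.193 in the WT pairs at 1 h. These are descriptions across genes of the same libraries. An alternative removed a trend on length that was fitted over all genes in each library. It called 25 members between genotypes without stress and 23 at 1 h. Over all genes the genotype difference had almost no linear relation with length. The relation in the members was not computed again after this removal, so how much of that relation was removed is not known. The part of length in the genotype differences was not tested.

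**Figure D4:**
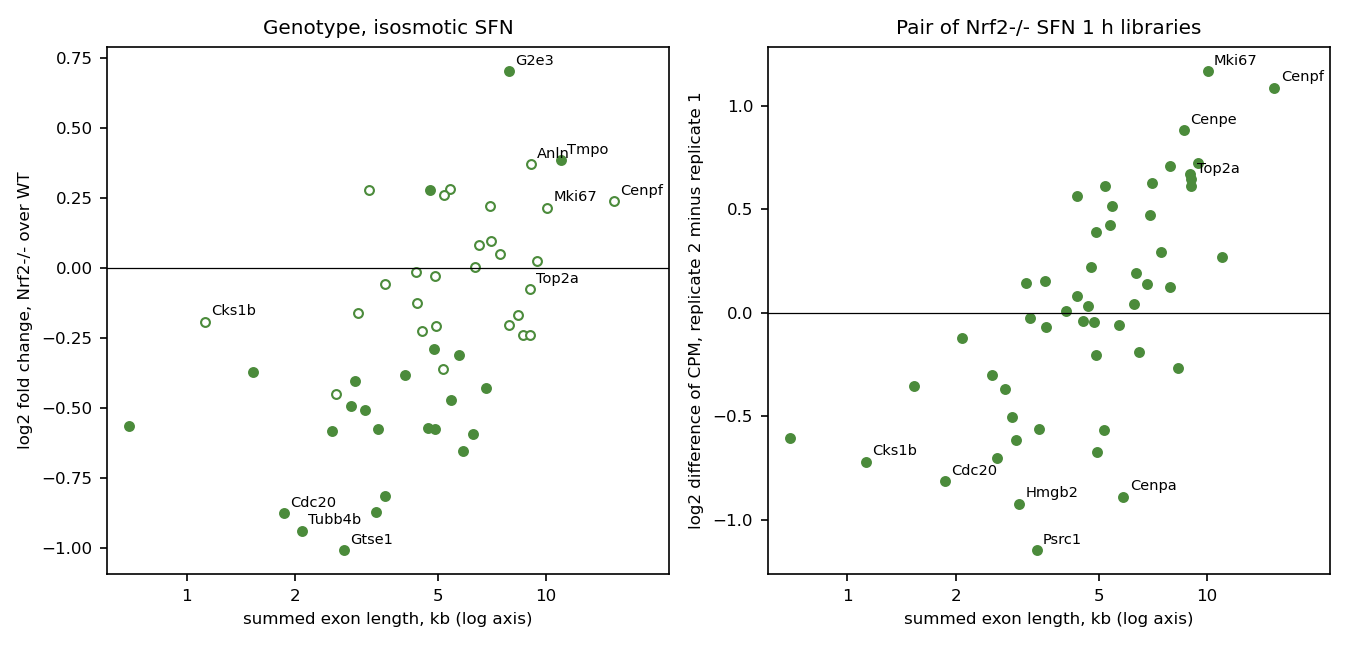
Left, the log2 fold change of each member between Nrf2-/- and WT cells without stress against its summed exon length (log axis, kb), filled where the adjusted p was under 0.05. Right, the log2 difference between the 2 Nrf2-/- libraries at 1 h against the same length, where short genes such as Cks1b and Cdc20 lie below 0 and long genes such as Mki67 and Cenpf above.

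The genotype counts depended on single libraries. Without stress, 24 members were called in all, against 15 without WT replicate 1, 13 when Nrf2-/- replicate 1 or replicate 2 was left out alone, and 38 when either library of the Nrf2-/- 1 h pair was left out. At 1 h, 24 were called, against 13 without WT replicate 1 and 39 without Nrf2-/- replicate 1. A fit on the 4 libraries compared called 4 at 1 h, all lower. Of single genes without stress, the call of Aurkb was lost in 18, that of Lbr in 16 and that of Rangap1 in 12 of 24 alternatives, and at 1 h that of Ccnb2 was lost in 20 and those of Cdca8 and Hmmr in 18 each of 23. Every other member called between genotypes lost its call in at most 6 alternatives, among them Gtse1 and Tacc3 in 0 in both comparisons. The 6 h counts stayed within 1.5 times of their value whichever library was left out, with 28 to 47 called with DMSO and 32 to 49 with SFN. Single calls at 6 h that were lost when at least 1 of the 4 libraries compared was left out were those of Ect2, Anln, Kif11, Cdca3, Birc5, Aurkb, Ccnb2 and Cdca8 with DMSO and of Cdc20, Cdca3, Rangap1, Ccnb2, Ncapd2, Nek2, Cks1b and Ckap2 with SFN.

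Other lists of cell cycle genes were counted in the same comparisons, to be read against the shares of all genes at 6 h, 22% lower and 23.9% higher with DMSO and 22.9% lower and 24.7% higher with SFN. Of 47 other mitosis genes 32 were lower and 1 higher with DMSO (median -0.48), led by Ska1 (-1.61) and Spc25 (-1.54) of the kinetochore, Depdc1a (-1.44) and Ccnb1, cyclin B1 (-1.25). With SFN 35 were lower and 0 higher. Of 42 S phase genes 11 were lower and 11 higher with DMSO and 9 and 12 with SFN, near those shares. Cdc6, which loads the replicative helicase, rose by 1.56 while Dscc1 (-1.63), Blm (-1.40) and Tipin (-1.29) fell. Among 10 genes of G1, 5 rose and 3 fell in each treatment, with Cdk6 at 1.29 and the D cyclins Ccnd2 at -1.18 and Ccnd1 at -0.98 with DMSO.

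The lists of regulators are small, and their counts of lower genes lay near the shares of all genes for the transcription factors and the G2 brakes. Of 20 transcription factors of the programme 9 rose and 4 fell with DMSO, and 8 rose and 4 fell with SFN. E2f7, a repressor among the E2F factors, rose by 1.57 with DMSO and 1.72 with SFN, Tfdp2, an E2F partner, by 1.63 and 1.26, and Rbl1, the p107 pocket protein, changed by -1.25 and -1.19. Of 16 genes listed as brakes on G2, 6 rose and 4 fell with DMSO and 7 rose and 3 fell with SFN. The list also holds Cdkn1b, the gene of the G1 inhibitor p27, which rose in both treatments, so these counts are not of G2 genes alone. Btg1, an antiproliferative factor, rose by 2.57 with DMSO and 3.27 with SFN, and Cdkn1a, the inhibitor p21, by 0.40 and 1.52. Btg2 changed by -1.78 with DMSO. The test of whether SFN altered the 6 h change called 3 of the 16 brakes, all higher, beside 0.759% of all genes. Between SFN and DMSO at 6 h itself 0 of the 16 were called, beside 0.041% of all genes. Without stress 4 brakes were lower with SFN than with DMSO in WT cells, beside 2.84% of all genes called. Of 17 genes of the anaphase-promoting complex 6 fell and 2 rose with DMSO and 7 fell and 2 rose with SFN. Fbxo5, the Emi1 inhibitor of that complex, rose by 1.19 and 1.25, whereas its activator Fzr1 fell by 1.16 and 1.23 and its subunits Anapc10 by 1.76 and 1.34 and Cdc23 by 1.28 and 1.35.

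Between genotypes without stress, 20 of the 47 other mitosis genes were lower and 6 higher in Nrf2-/- cells, with Troap (-1.21), Spc24 (-1.11) and Espl1, separase (-0.94), lower and Sgo1, a protector of cohesion, higher (0.98). At 1 h 19 were lower and 6 higher. The shares of all genes were 18.4% lower and 15.7% higher without stress and 16.2% and 15.3% at 1 h. Of the S phase list 13 were lower and 6 higher without stress and 12 and 4 at 1 h, with Slbp at -1.01 and Pola1, a DNA polymerase subunit, at 1.29 without stress. For G1 genes the counts were 5 higher and 2 lower and then 4 higher and 1 lower, with Ccnd1 higher by 1.69 and 1.99 and Ccnd2 by 1.73 and 2.56. The anaphase-promoting complex had 6 and then 5 genes lower and 0 higher. The transcription factors had 2 higher and 3 lower without stress and 1 and 2 at 1 h, and the G2 brakes 5 and 2 and then 4 and 4.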

How the data were processed

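RNA was extracted with TRIzol and sequenced on a NovaSeq. Titles, source and cell line labels give mIMCD3 cells, whereas the extract protocol names primary TEC, and the libraries were taken as mIMCD3. The deposited values are raw counts per gene for each library, which the authors made with featureCounts after alignment to mm10. The study's methods name Hisat2 as aligner and the submitters' processing notes Bowtie2. Versions, annotation and strand setting are not given in the sources used here. Depth was 34484296 to 50774875 counts per library, so precision was limited by 2 libraries per condition. Blank gene rows, 2 in the first unstressed WT library with DMSO and 3 in the first unstressed Nrf2-/- library, were dropped. Of counts from 1 to 10, 58% to 68.5% per library were even, so a fragment may have been counted by both mates, which was not tested.

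Genes were filtered with filterByExpr by condition, scaled with TMM and fitted in 1 model over 16 libraries with 8 condition means in edgeR 4.0.16 (glmQLFit, robust, glmQLFTest) under R 4.3.3. P-values were Benjamini-Hochberg adjusted over 19509 genes and called under 0.05. CPM are counts scaled to library size after TMM. Positions and exon lengths come from GENCODE M21, promoters from RefSeq. The fit was tested on simulated data. The simulated 6 h comparison with DMSO, run on 18325 genes, recovered 26% of 50 genes changed 1.5-fold and 82% of 50 changed 2-fold. Few genes were changed in it, whereas 45.9% of all genes were called in the real comparison. The adjustment of p-values was therefore stricter in the simulation, and these shares do not give the sensitivity for the members.

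The members and all lists were chosen with earlier results of these data known. Values of every library compared are given for 14 landmark genes (Mki67, Top2a, Cdk1, Ccnb2, Aurka, Aurkb, Cdc20, Birc5, Cenpa, Cenpf, Hmgb2, Cks1b, Cks2, Tubb4b) and, in the 6 h and genotype comparisons, for the 3 members with the largest positive and negative log2 fold changes. Other members called are named with their fold change, and from each companion list up to 4 called genes with the largest change. Cdkn1b is named besides these, without a value. Gadd45g and Cdkn1c, of low counts, are among those not printed. Of the genes most like the members across libraries, 1 is not reported here. Alternatives were DESeq2 1.42.0, RLE scaling, other filters, fewer libraries, a minimum fold, a replicate block, each library left out and, chosen after the data were seen, removal of a trend with length.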

Additional observations from a re-analysis of the deposited data

How the results depend on the processing

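With 2 libraries per condition, small changes were at the limit of detection. The common biological coefficient of variation was 0.149 over all libraries and 0.0864 without the Nrf2-/- 1 h pair. No value reversed. Of 2928 alternative values of the 120 gene-level changes 2692 kept their call and 236 lost it. DESeq2 and RLE scaling moved the 6 h medians to -0.40 with DMSO and -0.50 with SFN and the 1 h genotype median to -0.18. A floor of 10 counts in every library gave 6 h medians of -0.37 and -0.44. The DMSO median was -0.52 without the Nrf2-/- 1 h libraries, -0.47 on the 12 WT libraries and -0.45 on the libraries compared. Requiring at least 1.5-fold left 19 members at 6 h with DMSO, 1, 0 and 0 at 1 h (WT DMSO, WT SFN, Nrf2-/-), 8 and 14 between genotypes without stress and at 1 h, and 0 for SFN without stress. For the same 1 h comparisons, no filter gave 6, 3 and 3. Leaving out the Nrf2-/- 1 h libraries gave 16 and 5 at 1 h in WT cells, 38 between genotypes without stress, 18 for SFN without stress and 5 for the SFN by 6 h test. The 12 WT libraries gave 19 and 5 at 1 h, 19 for SFN without stress and 6 for the SFN by 6 h test. The libraries compared gave 17, 5 and 0 at 1 h, 4 for the 1 h genotype difference, and 5 and 4 for SFN without stress and at 1 h. DESeq2 called 2 (WT SFN) and 3 (Nrf2-/-) at 1 h, 3 for SFN without stress and 1 for the SFN by 6 h test. With no filter SFN without stress gave 4. With the length trend removed 4 and 2 were called at 1 h (WT SFN, Nrf2-/-) and 3 for SFN without stress, and the 1 h genotype median was -0.15. For fits on fewer libraries the share of all genes called was not counted, and the cause of these shifts was not tested.

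Leaving out 1 library gave 28 to 47 and 32 to 49 members called at 6 h with DMSO and SFN, 29 to 43 and 29 to 45 for 6 h against 1 h, 0 to 17, 0 to 5 and 1 to 23 at 1 h, 13 to 38 and 13 to 39 between genotypes, 0 to 17 for SFN without stress, 0 at 1 h and 0 at 6 h, 0 to 5 for the SFN by 6 h test and 0 to 13 for the genotype by 1 h test. The medians ran from -0.53 to -0.48, -0.64 to -0.57, -0.25 to -0.19 and -0.27 to -0.17 for 6 h with DMSO and SFN and for genotype without stress and at 1 h. The lone library left in an arm is assumed to vary like the others.

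Replicate numbers, taken from the titles, did not pair the libraries. For unstressed WT cells with SFN the deposited files carry other numbers than the titles, so the block, the correlations and the naming of these 2 libraries rest on that choice. Over 28 pairs of conditions the correlation of same-numbered deviations ran from -0.079 to 0.12 (median -0.0076). With the replicate number as a block 34 and 37 members were called at 6 h, 22 and 21 between genotypes, and 0 for SFN without stress.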

Other observations

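Across the 16 libraries, genes whose log2 CPM followed the mean of the 51 members most closely included Ccnb1 (r = 0.987), Tti1 (0.985), Abcd3 (0.984, an importer of peroxisomes) and Pphln1 (0.983). Ccnb1 is cyclin B1, the partner of Cdk1, and Tti1, Abcd3 and Pphln1 were in none of the lists. Within the 51, Ckap2l (0.987), Nusap1 (0.983), Cdc25c (0.975) and Dlgap5 (0.973) followed the mean of the other members most closely. Rangap1 (-0.69), Cks1b (-0.60), Ect2 (-0.53), Anln (-0.49) and Smc4 (-0.42) ran against it. Cbx5 (-0.26) and Cks2 (-0.19) did so only weakly, and Tmpo (-0.0093) had almost no relation with it. These values describe likeness over libraries that fall into a 6 h group and the rest, and no test was made of them.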
